A study of Mus musculus with 8 samples.

Results

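The nuclear genes for the subunits of the mitochondrial respiratory chain and of ATP synthase were followed in whole mouse esophagus with and without MGL, monoacylglycerol lipase, the enzyme that breaks down the endocannabinoid 2-arachidonoylglycerol. The subunit genes were taken by symbol: names beginning with Nduf and a structural letter and number (complex I), Sdha to Sdhd (complex II), Uqcr (complex III), Cox4 to Cox8 (complex IV) and Atp5 (ATP synthase, complex V). Of 32849 listed gene symbols 91 matched the names, and 83 of these were not named as pseudogenes and had a summed count of at least 80 over the 8 libraries. They comprised 38 genes of complex I, 4 of complex II, 8 of complex III, 16 of complex IV and 17 of complex V. Left out were 3 symbols named as pseudogenes and 5 genes under the summed count: Ndufb4c with 69 counts, Ndufs6b with 35, Ndufb11b with 1, and the testis isoforms Cox7b2 and Cox8c with 0. The members with the lowest sums above the limit were Cox4i2, with 141 counts, and Atp5o, with 470.

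RNA came from frozen esophagi of 4 MGL KO mice, in which MGL is deleted in every tissue, and 4 WT mice, none of them treated. WT littermates were bred in the same facility, and the study used young adult mice of both sexes, with no age or sex given for the mouse behind each library. Transcripts of 4 Y-linked genes were counted in all 8 libraries, so each library held RNA of a male. They summed to 186 to 224 normalized CPM (CPM, counts scaled to library size and TMM factor) in MGL KO and 194 to 211 in WT. The authors selected poly(A) RNA, sequenced it and deposited the number of reads per gene. The comparison asked which transcripts of the healthy esophagus differ where MGL is absent. The counts per library summed to between 13479069 and 17090152. Nothing in the labels says more than that these are separate samples, and p-values set the group difference against the spread between samples within a group.

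In the inner mitochondrial membrane, complexes I and II pass electrons from NADH and succinate to ubiquinone, complex III passes them on to cytochrome c and complex IV to oxygen. Complexes I, III and IV pump protons, and ATP synthase makes ATP as protons flow back. A few subunits of complexes I, III, IV and V are encoded in mitochondrial DNA, all others in the nucleus. Several complex IV subunits come as a ubiquitous and a striated muscle isoform. The wall of the mouse esophagus is made of striated muscle along its whole length, lined by a stratified squamous epithelium that is poor in mitochondria.

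Mgll, the targeted gene, was 13.7 ± 1.54 normalized CPM (mean ± SD, n = 4) in MGL KO and 81.2 ± 9.97 in WT. Its log2 fold change was -2.57 (SE 0.13, adjusted p = 0.00013, edgeR's quasi-likelihood test), so every library fitted its genotype label. Of the skeletal muscle, smooth muscle and squamous markers only Ivl, at 0.80 normalized CPM or less, had no count in some libraries (2 of 8), and 3 libraries stood apart in their makeup. MGL KO 2 had the highest sum over 19 skeletal muscle genes (121923 normalized CPM) and the lowest sum over 7 genes of differentiated squamous epithelium (2178). MGL WT 3 came next in both, with 105395 and 3018, whereas the other 6 libraries had 53524 to 84897 for muscle and 6515 to 15000 for squamous genes. MGL KO 4 held airway and heart muscle transcripts: its airway secretory markers summed to 8385 normalized CPM (50.8 or less elsewhere), its ciliated cell markers to 464 (15.9 or less elsewhere) and its cardiac markers to 2089 (113 or less elsewhere). Its skeletal muscle sum was the lowest of all.

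No respiratory chain subunit passed the test for a difference between MGL KO and WT esophagi. All 83 members passed the filter on low counts, and edgeR's quasi-likelihood test called 0 of them at an adjusted p under 0.05, against a background of 0.0471% of the 14864 genes tested. The smallest adjusted p was 0.55, for Cox8a. At an unadjusted p under 0.05 only Cox8a was counted, which was higher in MGL KO, against a background of 8.65% in either direction and 4.35% higher in MGL KO. DESeq2, limma-voom with quality weights and the exact test, which the study's methods name, also called 0 members at an adjusted p under 0.05, and each counted 1, Cox8a, at an unadjusted p under 0.05. Over all genes these tests called 0.922%, 0.168% and 0.437% at an adjusted p and 9.56%, 11.4% and 7.46% at an unadjusted p under 0.05. The ranges of the MGL KO and WT libraries overlapped in every member, whereas 6.02% of the genes tested had ranges without overlap. For 74 of the 83 members the 95% interval of the log2 fold change lay within -1 and 1, that is within a change of 2-fold either way, as it did for 73.4% of the genes tested. Within a change of 1.5-fold lay the interval of only 18 members.

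The fold changes nonetheless leaned one way. The log2 fold change was above 0 in 81 of 83 members, against a background of 53%, with a median of 0.16 beside 0.02 over all genes tested. The medians were 0.15 for complex I, 0.08 for complex II, 0.14 for complex III, 0.23 for complex IV and 0.12 for complex V. That lean rested on single libraries. Without MGL KO 2 the median was -0.13 and 75 members were lower in MGL KO, without MGL WT 3 it was 0.35, and without both it was 0.02, with 53 members higher and 30 lower. Scaling by library size alone kept 72 members above 0, limma-voom with quality weights 52. With RLE factors, DESeq2, the skeletal muscle covariate or the squamous covariate 81 stayed above 0, with medians of 0.17, 0.17, 0.13 and 0.13. With the level of the Y-linked genes as a covariate 46 members were above 0, and the median was 0.0086. Those genes were counted in every library, so this covariate does not contrast the sexes.

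**Figure D1:**
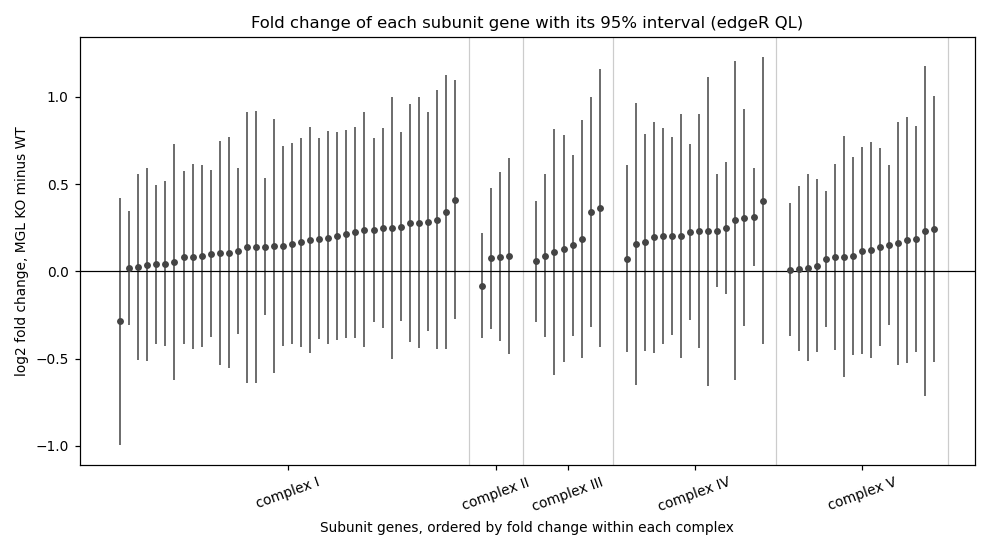
Log2 fold change (MGL KO minus WT, vertical axis) of each of the 83 subunit genes with its 95% interval, ordered within complexes I to V. Points lie above 0 in 81 genes, and the intervals cross 0 in all but Cox8a of complex IV.

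The larger difference was between libraries and not between genotypes. Summed over all members, MGL KO libraries 1 to 4 had 12390, 21467, 12359 and 11872 normalized CPM and WT libraries 1 to 4 had 11087, 12644, 16861 and 13001. MGL KO 2 was therefore far above its group, and MGL WT 3 was the highest of its own. The members took 1.2% to 1.76% of the counts of a library. Of the 83 members 76 were highest in MGL KO 2, against a background of 27.4%, and in 74 of them MGL WT 3 was the second highest, against 12.1%. At the other end MGL WT 1 was the lowest library in 57 members, against 10.5%. The median within-group SD on the log2 scale was 0.42 for the members and 0.28 over all genes tested.

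**Figure D2:**
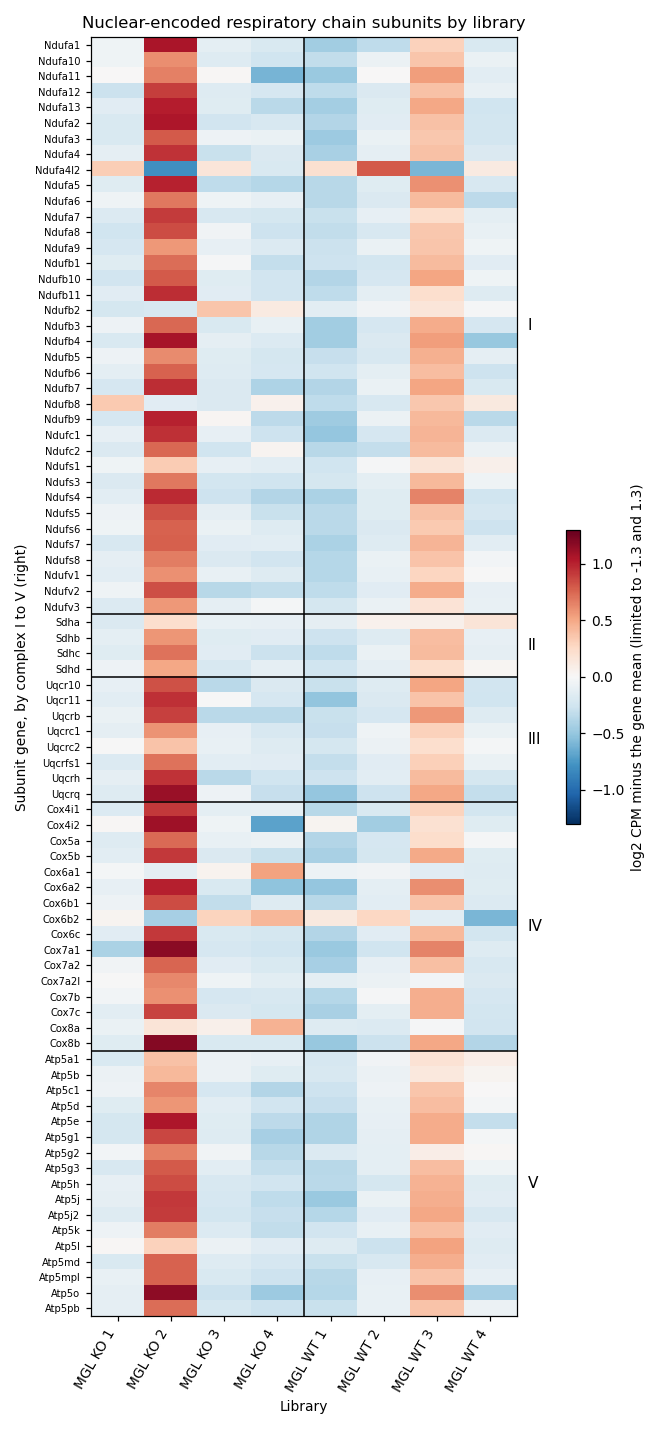
Heat map of 82 subunit genes (rows, by complex) in 8 libraries (columns), colored by log2 CPM minus the mean of the gene. The columns MGL KO 2 and MGL WT 3 are red in nearly all rows. Among the exceptions are Ndufa4l2, Cox6a1 and Cox6b2 in both columns, and Ndufb2 and Ndufb8 in MGL KO 2.

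All 5 complexes took part, to different extents. Complex I, the NADH dehydrogenase, summed to 3260, 6136, 3250 and 3120 normalized CPM in MGL KO 1 to 4 and to 2851, 3313, 4693 and 3340 in WT 1 to 4. Complex II, the succinate dehydrogenase of the citric acid cycle, summed to 1052, 1557, 1073 and 1060 in MGL KO and 1027, 1156, 1356 and 1227 in WT. Complex III, the cytochrome bc1 complex, summed to 1105, 1985, 1073 and 1027 in MGL KO and 957, 1086, 1525 and 1081 in WT. Each complex was thus highest in MGL KO 2 and next highest in MGL WT 3, and the groups overlapped in each. Complex IV, cytochrome c oxidase, summed to 1663, 3174, 1622 and 1647 in MGL KO and 1412, 1626, 2325 and 1566 in WT. Complex V, ATP synthase, summed to 5310, 8615, 5341 and 5018 in MGL KO and 4841, 5463, 6963 and 5787 in WT. Against the median of the other 6 libraries, the median member of MGL KO 2 was 1.94-fold, with 2.13-fold for complex III, 2.08-fold for complex IV, 1.94-fold for complex I, 1.88-fold for complex V and 1.6-fold for complex II. In MGL WT 3 the median member was 1.49-fold. In a whole tissue, more cells of a type and more of a transcript per cell cannot be told apart.

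The same order of libraries was found in the mitochondrially encoded subunits. Of 13 listed, 12 were tested, and all 12 were highest in MGL KO 2, with MGL WT 3 second. COX1, the catalytic subunit of complex IV, was 20016, 46178, 20036 and 19103 normalized CPM in MGL KO 1 to 4 and 18803, 21216, 29147 and 21412 in WT 1 to 4. CYTB, the cytochrome b of complex III, was 8478, 21020, 8329 and 7546 in MGL KO and 7743, 9168, 13657 and 9246 in WT. In MGL KO 2 the median of the mitochondrially encoded subunits was 2.80-fold the median of the other 6 libraries, above the 1.94-fold of the nuclear-encoded subunits. COX2, COX3, ATP6, ATP8, ND3 and ND4L were counted at 40.3 normalized CPM or less in every library, and near-identical copies elsewhere in the genome cover at least 99.1% of each of these and of COX1. In the comparison of genotypes 0 of the 12 had an adjusted or unadjusted p under 0.05 by edgeR's quasi-likelihood test, against backgrounds of 0.0471% and 8.65%.

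The order was also counted in other mitochondrial genes and in skeletal muscle genes. MGL KO 2 was highest and MGL WT 3 second in 13 of 16 enzymes of the citric acid cycle and pyruvate dehydrogenase and in 13 of 19 skeletal muscle markers. The same held for 27 of 48 assembly factors, which build the complexes without staying in them. Only 2 of 18 regulators of mitochondrial biogenesis had this order, and the background was 12.1% of the genes tested. The median fold in MGL KO 2 was 1.36 for the citric acid cycle enzymes, 1.52 for assembly factors, 1.55 for skeletal muscle markers and 1.10 for the regulators, against 0.97 over all genes tested. Genes of differentiated squamous epithelium were at 0.27-fold in MGL KO 2 and 0.26-fold in MGL WT 3. In the same 2 libraries basal squamous markers were at 0.61-fold and 0.63-fold, and adipocyte markers at 0.12-fold and 0.056-fold. By edgeR's quasi-likelihood test 0 genes of these lists had an adjusted p under 0.05. An unadjusted p under 0.05 by that test was found in 0 of 16 citric acid cycle genes, 0 of 48 assembly factors, 1 of 19 skeletal muscle markers and 2 of 18 regulators. It was found in 1 of 6 tested genes of differentiated squamous epithelium, 0 of 6 basal squamous markers and 0 of 5 adipocyte markers. The background was 8.65%. The part of muscle content in the levels of the subunits was not tested.

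**Figure D3:**
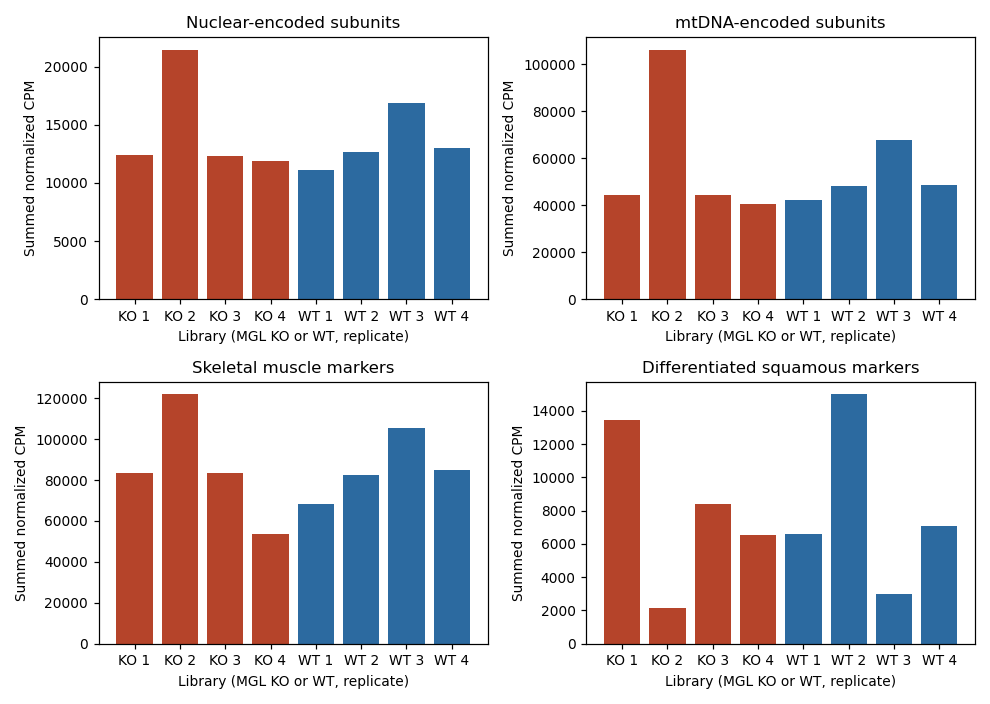
Summed normalized CPM (vertical axes, from 0) of the nuclear-encoded subunits, mitochondrially encoded subunits, skeletal muscle markers and differentiated squamous markers in each library, with MGL KO in red and WT in blue. MGL KO 2 has the highest bar in the first 3 panels and the lowest in the squamous panel, and MGL WT 3 comes next in each.

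Within the members, the size of the difference of MGL KO 2 and MGL WT 3 varied with the length of the coding sequence, a pattern looked for after the values were seen. In MGL KO 2 the 25 members with coding sequences of up to 300 bases had a median of 2.19-fold, the 38 members of above 300 to 600 bases 1.99-fold, the 10 of above 600 to 1200 bases 1.79-fold and the 8 of over 1200 bases 1.40-fold. The median was thus higher in short members than in long ones. In MGL WT 3 the medians over the same classes were 1.55-fold, 1.5-fold, 1.45-fold and 1.22-fold. All genes tested showed the same order at a lower level, from 1.24-fold for 315 genes of up to 300 bases to 0.90-fold for 8051 genes of over 1200 bases in MGL KO 2. In each class the median of the members lay above that of all genes of the class. Examples of long subunits in MGL KO 2 are Ndufs1, the largest subunit of complex I, at 1.33-fold and Sdha, the flavoprotein of complex II, at 1.25-fold. The small subunits Cox7a1 and Cox8b, both striated muscle isoforms, were at 2.7-fold each. Members of similar length were far lower: Cox8a was at 1.22-fold, Cox6b2 at 0.65-fold and Ndufa4l2 at 0.51-fold. The highest member was Atp5o, with 639 coding bases, at 2.76-fold.

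**Figure D4:**
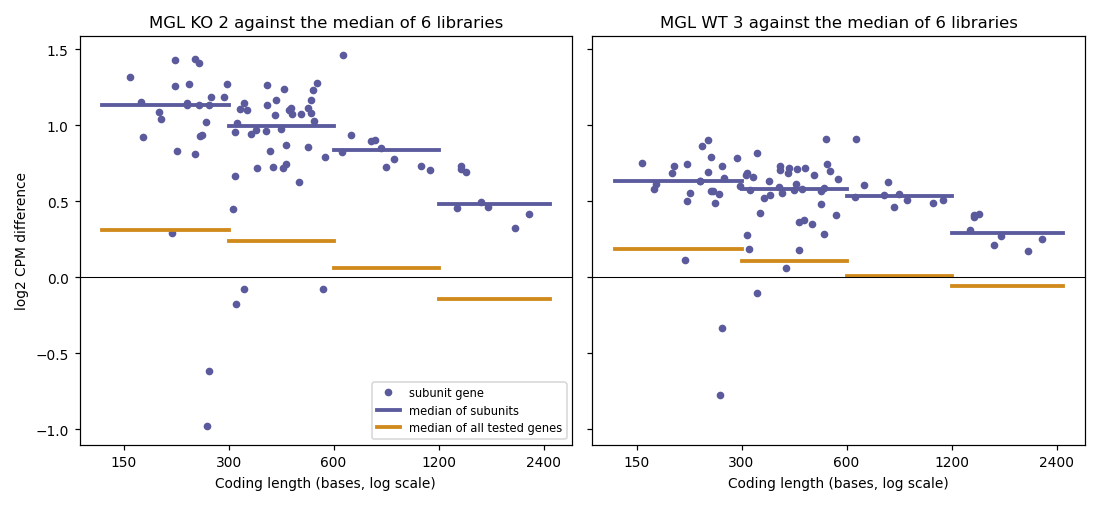
Difference in log2 CPM of MGL KO 2 (left) and MGL WT 3 (right) from the median of the other 6 libraries against coding length (bases, log axis) for 81 subunit genes. Purple bars give the median of the subunits and orange bars that of all genes tested in 4 classes of length, and both step down from short to long, from 1.13 to 0.48 for the subunits of MGL KO 2.

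Among catalytic and core subunits the genotypes differed by little. Atp5b, the catalytic beta subunit of ATP synthase and the member with the highest level per coding length (1306 CPM per 1000 coding bases), was 1955, 2754, 1946 and 1840 normalized CPM in MGL KO 1 to 4 and 1776, 1954, 2258 and 2101 in WT 1 to 4. Its log2 fold change was 0.07 (95% interval -0.32 to 0.46). Sdha was 563, 747, 598 and 594 in MGL KO and 590, 667, 671 and 722 in WT, a log2 fold change of -0.08 (95% interval -0.38 to 0.22), and it was 1 of only 2 members below 0. Sdha departed from the other members in its second highest library, which was MGL WT 4. Ndufs1 (0.02) and Ndufv1 (0.12), core subunits of complex I that carry iron-sulfur clusters, Sdhb (0.08), the iron-sulfur subunit of complex II, Uqcrc1 (0.09) and the Rieske protein gene Uqcrfs1 (0.15) of complex III, Cox5a (0.23) of complex IV and Atp5a1 (0.01), the alpha subunit of ATP synthase, had log2 fold changes with unadjusted p of 0.339 or more. Atp5a1 and Ndufs1 changed sign when the scaling was by library size alone or by upper quartile.

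The members with the largest log2 fold changes were small accessory subunits. Ndufa1, a membrane subunit of complex I, was 48.1, 105, 46.1 and 43.7 normalized CPM in MGL KO 1 to 4 and 36.8, 39.9, 61.8 and 43.6 in WT 1 to 4. Its log2 fold change of 0.41 (SE 0.30, adjusted p = 0.71, edgeR's quasi-likelihood test) was 0.02 without MGL KO 2. Cox8b (0.41) of complex IV, described below, Uqcrq (0.36) and Uqcr11 (0.34) of complex III and Ndufb4 (0.34) of complex I followed, and each was below 0 without MGL KO 2. With MGL KO 2 and MGL WT 3 both left out, a fit chosen after seeing the data, the values were positive, at 0.20 for Ndufa1 (unadjusted p = 0.062), 0.21 for Cox8b (unadjusted p = 0.032), 0.19 for Uqcrq, 0.20 for Uqcr11 and 0.21 for Ndufb4 by edgeR's quasi-likelihood test, where 8.9% of all genes had an unadjusted p under 0.05. With the skeletal muscle genes as a covariate Ndufa1 (0.37, unadjusted p = 0.032) and Uqcr11 (0.31, unadjusted p = 0.045) joined Cox8a among the members at an unadjusted p under 0.05 by edgeR's quasi-likelihood test, where the background was 13.5%.

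Cox8a, the ubiquitous isoform of the smallest complex IV subunit, was 70.2, 83.5, 78.0 and 102 normalized CPM in MGL KO 1 to 4 and 66.2, 65.8, 73.8 and 62.7 in WT 1 to 4. It was thus highest in MGL KO 4, the library with airway and heart transcripts, and MGL KO 1 lay below the highest WT library. The log2 fold change was 0.31 (SE 0.12, 95% interval 0.03 to 0.59, unadjusted p = 0.032, adjusted p = 0.55, edgeR's quasi-likelihood test). Without MGL KO 4 it was 0.20 with an unadjusted p of 0.087. Cox6a1, the ubiquitous isoform of subunit VIa, showed the same departure with 112, 105, 118 and 164 in MGL KO and 109, 111, 103 and 102 in WT (log2 fold change 0.23, 95% interval -0.09 to 0.56). Its log2 fold change was 0.08 without MGL KO 4. Cox6b2, an isoform known from testis, was also highest in MGL KO 4, at 5.56 against 2.74 to 5.06 in the others. MGL KO 4 also had the highest sum of brown fat markers (146 normalized CPM, 52.0 or less elsewhere). Its adipocyte markers summed to 504, and to 330 or less elsewhere. The part of airway, heart or fat tissue in these values was not tested.

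The muscle isoforms of complex IV were highest in MGL KO 2 and MGL WT 3, as was the ubiquitous Cox7a2, but not the ubiquitous Cox6a1 and Cox8a. Cox6a2, the striated muscle form of subunit VIa, was 161, 349, 151 and 121 normalized CPM in MGL KO 1 to 4 and 122, 159, 265 and 156 in WT 1 to 4. Cox7a1, the striated muscle form of subunit VIIa, was 45.7, 137, 52.3 and 50.8 in MGL KO and 43.7, 50.8, 94.9 and 54.1 in WT, and its partner Cox7a2 was 74.5, 130, 69.5 and 67.3 in MGL KO and 57.1, 71.5, 101 and 66.7 in WT. Cox8b, the muscle partner of Cox8a, was 59.4, 151, 57.7 and 57.7 in MGL KO and 47.1, 54.3, 93.6 and 50.5 in WT. Each of these genes was highest in MGL KO 2, with the other MGL KO libraries inside or near the WT range. Their log2 fold changes were 0.16, 0.23, 0.20 and 0.41, with intervals that held 0. Cox8b shares 57.3% of its exon bases with Psmd13 on the opposite strand, and the use of strand in counting is not given in the sources used here.

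Ratios within a library, which no scaling enters, placed MGL KO 2 highest and MGL WT 3 second for all 3 muscle isoforms. The log2 ratio of Cox6a2 to Cox6a1 was 0.52, 1.73, 0.36 and -0.43 in MGL KO 1 to 4 and 0.17, 0.52, 1.36 and 0.62 in WT 1 to 4. For Cox7a1 over Cox7a2 it was -0.71, 0.08, -0.41 and -0.41 in MGL KO and -0.39, -0.49, -0.09 and -0.30 in WT. For Cox8b over Cox8a it was -0.24, 0.85, -0.43 and -0.82 in MGL KO and -0.49, -0.28, 0.34 and -0.31 in WT. The groups overlapped in each ratio, and the means of the 2 groups differed by -0.12, -0.04 and 0.02, less than the SD within either group. Per coding length the muscle isoform made up a median of 62.2% of the Cox6a pair, 44.1% of the Cox7a pair and 44.6% of the Cox8 pair. Cox4i2, the isoform of subunit IV known for its induction by low oxygen, was at 0.67 to 2.35 normalized CPM in all libraries, and Cox4i1 at 194 to 472.

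**Figure D5:**
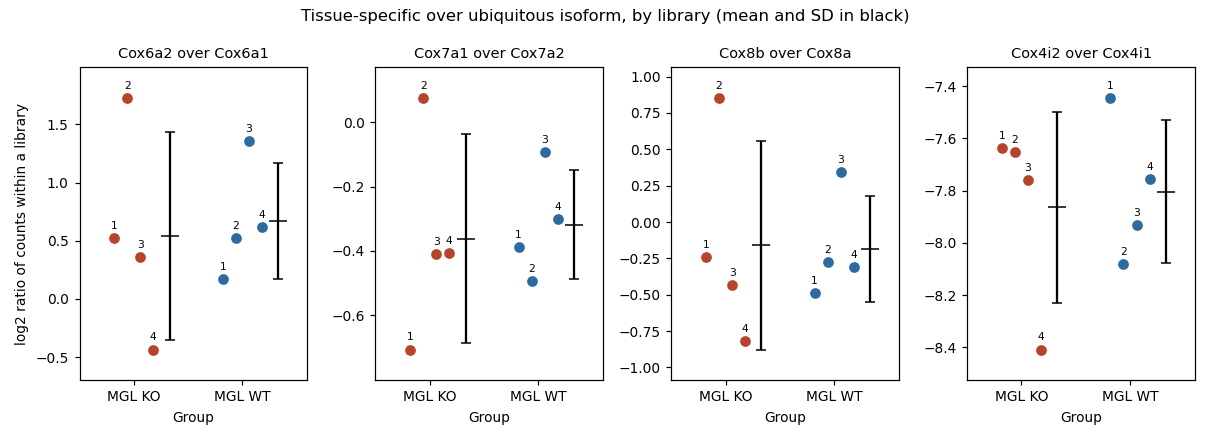
Log2 ratio of counts of the tissue-specific to the ubiquitous complex IV isoform in each library (points, numbered by replicate) with mean and SD (black) for MGL KO and WT. Replicate 2 of MGL KO and replicate 3 of WT are the upper 2 points for Cox6a2, Cox7a1 and Cox8b.

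The 250 bases before the transcription start of these isoforms are shown to set the muscle forms beside the ubiquitous ones. They are RefSeq sequences of build GRCm38.p6 on the strand of the gene, whereas the reads were aligned to GRCm39. They lie at chr7:30183921-30184170 (Cox7a1, forward), chr9:79759854-79760103 (Cox7a2, reverse), chr19:7217617-7217866 (Cox8a, reverse), chr7:140900447-140900696 (Cox8b, reverse) and chr5:115348959-115349208 (Cox6a1, reverse). Cox6a2, Cox4i1 and Cox4i2 were not in the table. Capitals mark matches on either strand to motifs named below.
Cox7a1: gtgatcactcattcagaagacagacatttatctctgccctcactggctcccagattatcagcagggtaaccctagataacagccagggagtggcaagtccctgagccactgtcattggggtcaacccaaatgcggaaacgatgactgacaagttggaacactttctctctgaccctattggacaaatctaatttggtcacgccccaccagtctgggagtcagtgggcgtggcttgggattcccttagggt
Cox7a2: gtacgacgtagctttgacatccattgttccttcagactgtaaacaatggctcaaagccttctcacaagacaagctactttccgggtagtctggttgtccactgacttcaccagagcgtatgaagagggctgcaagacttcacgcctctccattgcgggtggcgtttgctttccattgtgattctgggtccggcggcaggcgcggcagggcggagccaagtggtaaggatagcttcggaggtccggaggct
Cox8a: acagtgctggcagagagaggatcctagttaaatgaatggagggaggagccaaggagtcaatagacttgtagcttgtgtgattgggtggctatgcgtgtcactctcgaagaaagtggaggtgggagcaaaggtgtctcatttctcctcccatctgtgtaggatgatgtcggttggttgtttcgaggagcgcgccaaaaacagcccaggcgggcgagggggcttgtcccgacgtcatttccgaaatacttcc
Cox8b: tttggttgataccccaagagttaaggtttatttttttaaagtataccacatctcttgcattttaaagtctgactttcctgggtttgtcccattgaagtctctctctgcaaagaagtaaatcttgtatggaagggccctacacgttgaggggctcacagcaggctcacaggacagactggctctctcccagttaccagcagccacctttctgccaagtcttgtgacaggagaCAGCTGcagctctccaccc
Cox6a1: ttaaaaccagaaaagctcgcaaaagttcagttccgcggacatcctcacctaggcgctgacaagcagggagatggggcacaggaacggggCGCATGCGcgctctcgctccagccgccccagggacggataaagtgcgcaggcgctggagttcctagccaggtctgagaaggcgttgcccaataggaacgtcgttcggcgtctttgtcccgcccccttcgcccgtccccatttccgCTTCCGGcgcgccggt
The muscle forms Cox7a1 and Cox8b held 4 and 1 CG dinucleotides in this window, and the ubiquitous forms Cox6a1, Cox7a2 and Cox8a held 26, 14 and 11. Capitals in Cox6a1 are overlapping NRF1 motifs on both strands and an ETS motif on the opposite strand, and those in Cox8b are an E-box.

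Promoters were matched for 68 of the 83 members. The median number of CG dinucleotides in 250 bases was 14 for the members and 6 over all 27025 promoters. The NRF1 motif core GCATGCG, bound by a regulator of many respiratory genes, was found in 8 of the 68 (11.8%, and 3.07% of all promoters). The ETS motif CCGGAAG, the core that GABP and relatives bind, was found in 11 (16.2%, and 7.05% of all). The ERR motif AAGGTCA, bound by estrogen-related receptors, was found in 5 (7.35%, and 4.05% of all), and the muscle E-box CAGCTG in 6 (8.82%, and 12.8% of all). TATAAA was found in 6 (8.82%, and 13% of all) and the YY1 motif AAGATGG in 0 (4.53% of all). Both strands were searched, no motif contains another, and a match is a run of letters and not a bound site.

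Ndufa4l2 was the one member that was lowest in MGL KO 2. It is a relative of Ndufa4, a subunit first assigned to complex I and now to complex IV, and is known as a target of the hypoxia response that is found in pericytes. Ndufa4l2 was 27.4, 12.6, 24.5 and 19.2 normalized CPM in MGL KO 1 to 4 and 25.5, 38.4, 14.6 and 23.8 in WT 1 to 4, so that MGL KO 2 was lowest and MGL WT 3 the next lowest. Ndufa4 was 185, 385, 164 and 176 in MGL KO and 150, 185, 261 and 176 in WT. Their log2 fold changes were -0.29 (95% interval -0.996 to 0.42) and 0.24 (95% interval -0.44 to 0.91). The value of Ndufa4l2 was -0.023 without MGL WT 2 and -0.47 without MGL WT 3, and with the squamous genes as a covariate it was -0.30 (unadjusted p = 0.034, adjusted p = 0.38, edgeR's quasi-likelihood test), where the background was 12.1%. Of 6 mural cell and pericyte markers 0 had an adjusted p under 0.05 and 1 an unadjusted p under 0.05 by edgeR's quasi-likelihood test, against backgrounds of 0.0471% and 8.65%. Their log2 fold changes were below 0 in 6 of 6 with a median of -0.30, and their summed level was 396 to 558 in MGL KO and 512 to 599 in WT. Their median was 0.61-fold in MGL KO 2 and 1.01-fold in MGL WT 3 against the other 6 libraries, and their part in the value of Ndufa4l2 was not tested. Ndufa4l2 shares 75.2% of its exon bases with Shmt2 on the opposite strand.

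Levels differed widely between members. Per coding length the highest were Atp5b in complex V, Cox6c in complex IV (1006 CPM per 1000 coding bases), Ndufa4 by name in complex I (855), Uqcrq in complex III (594) and Sdhc in complex II (399). The lowest within each complex were Cox4i2 in complex IV (2.26), Atp5o in complex V (6.10), Ndufb8 in complex I (8.16), Uqcrc1 in complex III (184) and Sdhb in complex II (242). Of the 83 members 5 had a mean of 100 counts or fewer per library: Atp5o, Cox4i2, Cox6b2, Ndufb2 and Ndufb8. Atp5o, Ndufb2 and Ndufb8 encode structural subunits whose partners in the same complex were far higher. Ndufb8 shares 68.6% of its exon bases with a readthrough transcript on the same strand and Ndufb2 27.5%. Atp5l has near-identical copies (at least 95% over at least 100 bases) at 11 places in the genome that cover 88.6% of its transcript. Altogether 45 members overlapped an exon of another gene, 5 of them on the same strand, and 14 had at least 50% of their transcript in a near-identical copy, so that reads of these genes could be lost or split by the counting.

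Of the members not highest in MGL KO 2, several belong to these genes with uncertain counts. Ndufb2 was highest in MGL KO 3 (7.34, against 4.90 to 6.38 in the others), Ndufb8 in MGL WT 3 (5.72, against 3.57 to 5.69) and Atp5l in MGL WT 3 (16.6, against 9.59 to 14.3). Cox7a2l, a factor of supercomplex assembly, was highest in MGL KO 2 at 190 normalized CPM but had MGL KO 1 second, and its log2 fold change was 0.25 (95% interval -0.13 to 0.63), which was 0.049 without MGL KO 2.

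Among 18 regulators of mitochondrial biogenesis 0 had an adjusted p under 0.05 by edgeR's quasi-likelihood test and 2 had an unadjusted p under 0.05, against a background of 8.65%. Esrrg, an estrogen-related receptor that drives oxidative genes in muscle, was 38.3, 41.8, 33.7 and 29.4 normalized CPM in MGL KO 1 to 4 and 21.1, 21.6, 28.9 and 23.8 in WT 1 to 4. The groups did not overlap, as for 6.02% of the genes tested (log2 fold change 0.59, SE 0.15, unadjusted p = 0.0033, adjusted p = 0.43, edgeR's quasi-likelihood test). Ppargc1a, the coactivator of mitochondrial biogenesis, was 30.6, 34.7, 27.6 and 23.7 in MGL KO and 32.0, 35.6, 41.9 and 37.4 in WT (log2 fold change -0.34, SE 0.14, unadjusted p = 0.039, adjusted p = 0.56, edgeR's quasi-likelihood test), and the groups overlapped. Neither order of libraries was that of the subunits, since Ppargc1a was highest in MGL WT 3 and Esrrg had MGL KO 1 second.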

How the data were processed

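Poly(A) RNA of frozen esophagi from 4 MGL KO and 4 WT mice was sequenced on 2 models of Illumina NovaSeq. The authors checked reads with FastQC 0.11.9, trimmed them with Cutadapt, aligned them to GRCm39 with STAR 2.7.10b and deposited raw whole-number counts per gene symbol. The counting tool, its use of strand and the annotation are not given in the sources used here. Groups and replicate numbers came from the sample titles.

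Genes were kept by filterByExpr at a minimum count of 10 (14864 of 22721 with a count), scaled by TMM and compared with the quasi-likelihood test of edgeR 4.0.16 in R 4.3.3, with Benjamini-Hochberg adjustment over all genes tested and a threshold of 0.05. Standard errors are the log2 fold change over the square root of F, and log2 CPM used a prior count of 1. Alternatives included the exact test, DESeq2 1.42.0, limma 3.58.1, other scalings, filters and covariates, and each library left out. Coding lengths and exon overlaps came from GENCODE vM39, where 81 of 83 members were found, 14 under a newer name. Near-identical copies were searched with blastn 2.17.0.

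Members and gene lists were chosen with earlier results of these data known. The genes named were isoform sets, core subunits, the members with the largest changes, the smallest unadjusted p and the highest and lowest level per coding length in each complex. Members that depart from the common library order, the genes with low counts and the mitochondrially encoded and regulator genes were named after their values were seen. Of the members that the rule on names picks, 1 stays in counts, sums and medians but is not reported here by its own values. Among pairs of libraries of the same group, none had counts alike within sampling noise.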

Additional observations from a re-analysis of the deposited data

Results flagged for a closer look

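In a group of 4 libraries, a value that stands far from the other 3 was looked for in 84 sets of values, of which chance gives about 4.2, and 29 were found. MGL KO 2 was the high library in 27 of them. For the sums these were all members (21467 normalized CPM, next 12390), complex I (6136, next 3260), complex II (1557, next 1073), complex III (1985, next 1105), complex IV (3174, next 1663) and complex V (8615, next 5341).

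For single genes MGL KO 2 stood apart in complex I for Ndufa1 (105 normalized CPM), Ndufa4 (385), Ndufb4 (67.6), Ndufs1 (244) and Ndufv1 (423). It did so in complex II for Sdhb (299) and Sdhc (319), and in complex III for Uqcr11 (170), Uqcrc1 (387), Uqcrfs1 (303) and Uqcrq (297). In complex IV the values were 472 for Cox4i1, 85.4 for Cox5a, 239 for Cox6b1, 415 for Cox6c, 137 for Cox7a1, 130 for Cox7a2, 190 for Cox7a2l and 151 for Cox8b. In complex V they were 2754 for Atp5b and 8.03 for Atp5o. These values share 1 library and are not separate observations.

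The other 2 were Cox8b in MGL WT 3 (93.6 normalized CPM, next 54.3) and the log2 ratio of Cox4i2 to Cox4i1 in MGL KO 4 (-8.41, next -7.76).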

How the results depend on the processing

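Over 14 alternatives that kept all libraries, 8 that left out 1 library and 2 chosen after seeing the data, 0 members had an adjusted p under 0.05. The number with an unadjusted p under 0.05, which was 1 (Cox8a), was 0 with library size alone (6.64% of all genes), with the exact test without a filter (6.03%), with the replicate block (4.92%), with the Y-linked covariate (5.53%) and with counts scaled to the summed skeletal muscle counts (3.03%), the last chosen after seeing the data. It was 3 with the skeletal muscle covariate (13.5% of all genes), with the squamous covariate (12.1%) and, chosen after seeing the data, with MGL KO 2 and MGL WT 3 both left out (8.9%), and 0 to 1 with each library left out in turn. It was 0 without MGL KO 4, WT 1, WT 2 or WT 4. The median log2 fold change was -0.13 to 0.35 with each library left out and 0.11 under the replicate block, where 0 members were called. Same-numbered libraries of the groups, which share only a number, did not deviate together (correlations over genes of -0.14, -0.28, -0.14 and 0.08), and 0 of 8 libraries correlated best with its own number. Skeletal muscle scaling moved the median of all genes to 0.10 and that of the members to 0.18.

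Among named members, none of them called, the log2 fold change turned negative as follows. Library size alone gave -0.048 for Atp5a1 and -0.036 for Ndufs1, upper quartile factors -0.011 for Atp5a1 and -0.0010 for Ndufs1, and the replicate block -0.00040 for Atp5a1. Quality weights gave Atp5a1 -0.091, Atp5b -0.013, Cox7a1 -0.044, Ndufs1 -0.054, Sdhc -0.024 and Uqcrc1 -0.0088. The Y-linked covariate gave Atp5a1 -0.090, Cox6a2 -0.011, Cox7a1 -0.060, Cox7b -0.015, Ndufs1 -0.035, Sdhb -0.030, Sdhc -0.046 and Uqcrc1 -0.016. Without MGL KO 2 and MGL WT 3 the values were Atp5a1 -0.066, Atp5b -0.019, Cox4i2 -0.035, Cox6a2 -0.010, Ndufs1 -0.036, Sdhc -0.020 and Uqcrc1 -0.00098. The cause was not tested.

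Over the fits without 1 library, the values lay on both sides of 0 for 24 of the members named by rule (leaving out MGL KO 2 alone turned the sign of 73 of all 83 members): Atp5a1 -0.13 to 0.082, Atp5b -0.076 to 0.14, Atp5o -0.27 to 0.52, Cox4i1 -0.037 to 0.48, Cox4i2 -0.13 to 0.51, Cox5a -0.033 to 0.35, Cox6a2 -0.28 to 0.43, Cox6b1 -0.13 to 0.39, Cox6c -0.13 to 0.44, Cox7a1 -0.29 to 0.54, Cox7a2 -0.071 to 0.40, Cox7b -0.15 to 0.28, Cox8b -0.071 to 0.69, Ndufa4 -0.14 to 0.43, Ndufb4 -0.076 to 0.64, Ndufb8 -0.091 to 0.17, Ndufs1 -0.097 to 0.090, Ndufv1 -0.097 to 0.25, Sdhb -0.13 to 0.26, Sdhc -0.19 to 0.27, Uqcr11 -0.0051 to 0.55, Uqcrc1 -0.12 to 0.22, Uqcrfs1 -0.11 to 0.30 and Uqcrq -0.079 to 0.64. The differences of the isoform log2 ratios between groups ranged from -0.52 to 0.20 for Cox6a2 over Cox6a1, -0.19 to 0.072 for Cox7a1 over Cox7a2, -0.31 to 0.24 for Cox8b over Cox8a and -0.15 to 0.12 for Cox4i2 over Cox4i1.

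The median standard error of a member's log2 fold change was 0.26 at 4 libraries a group. Changes within the interval of a member remained compatible with the data, and the smallest detectable change was not calculated.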

Other observations

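Myosin heavy chain genes did not share one order. Myh4, the fastest myosin heavy chain, was 521, 836, 2050 and 813 normalized CPM in MGL KO 1 to 4 and 1914, 2354, 3618 and 2758 in WT 1 to 4, a log2 fold change of -1.33 (SE 0.41, unadjusted p = 0.010, adjusted p = 0.48, edgeR's quasi-likelihood test), with MGL KO 3 inside the WT range. Myh2, the myosin of fast oxidative fibers, was 513, 1089, 582 and 222 in MGL KO and 171, 248, 673 and 805 in WT, and the groups overlapped. Myh4 is known from fibers poor in mitochondria, and its order of libraries was not that of the respiratory chain subunits.

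Tnnc2, the fast troponin C, was counted at 1.10 to 3.52 normalized CPM in every library and Tagln, a smooth muscle gene, at 0.36 to 1.11, although their partners Tnni2 and Acta2 were at 1822 to 6771 and 466 to 796. These low counts in genes that such muscle is known to express resemble those of Atp5o and Ndufb8 above.

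Of 10 hypoxia response genes 0 had an adjusted p under 0.05 and 2 an unadjusted p under 0.05 by edgeR's quasi-likelihood test, against a background of 8.65%. P4ha1, a collagen prolyl hydroxylase, was 81.9, 102, 86.9 and 85.7 normalized CPM in MGL KO 1 to 4 and 74.5, 70.4, 74.0 and 64.4 in WT 1 to 4, without overlap, as for 6.02% of the genes tested (log2 fold change 0.33, SE 0.10, unadjusted p = 0.0087, adjusted p = 0.48, edgeR's quasi-likelihood test). Ero1a, an oxidase of the endoplasmic reticulum, was 14.6, 120, 13.9 and 15.5 in MGL KO and 15.8, 13.5, 10.3 and 12.9 in WT, so that it was high in MGL KO 2 alone and the groups overlapped (log2 fold change 1.63, SE 0.72, unadjusted p = 0.049, adjusted p = 0.58, edgeR's quasi-likelihood test). The brown fat markers summed to 146 normalized CPM in MGL KO 4 and to 52.0 or less in the others, and Ucp1, the uncoupling protein that lets protons bypass ATP synthase, was 43.6 there and 2.45 or less in the others. Of the same 5 markers Ppargc1a was lowest in MGL KO 4 (23.7), and Elovl3 was at 0.79 or less throughout. Dio2 was 7.16 to 12.5 in MGL KO and 3.59 to 4.34 in WT, without overlap. Of 3 tested, 0 had an adjusted p and 3 an unadjusted p under 0.05 by edgeR's quasi-likelihood test, 2 of them higher in MGL KO, against a background of 8.65%.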
